A study of Mus musculus with 19 samples.

Results

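The 10 genes followed here encode enzymes of threonine breakdown, glycine cleavage, serine synthesis and the passage of carbon through the folate pool. They were chosen by name: Tdh, Gcat, Gldc, Amt, Shmt1, Shmt2, Mthfd2, Mthfd1l, Phgdh and Psat1. All 10 were found by gene symbol among the 23420 genes counted in each of 19 mouse RNA-seq libraries. The largest fold changes among them were those of Tdh between cell states. Tdh, which encodes threonine dehydrogenase, had no count in either epiblast stem cell library and was counted in all 17 libraries of embryonic stem cells and induced pluripotent stem cells. Gldc, which encodes the glycine decarboxylase of the glycine cleavage system, was lower in epiblast stem cells than in induced pluripotent stem cells. It had 10 counts over the 2 epiblast stem cell libraries. Of 8 genes tested, 1 passed between epiblast and embryonic stem cells, beside 15.1% of all genes. Between epiblast and induced pluripotent stem cells 2 of the 8 passed, beside 28.3% of all genes. These shares lie near those of all genes.

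In mouse, threonine dehydrogenase oxidises threonine in the mitochondrion, and the product is split by the enzyme encoded by Gcat into glycine and acetyl-CoA. Glycine is then cleaved by the glycine cleavage system, and its methylene carbon is passed to tetrahydrofolate, which supplies purine, thymidylate and methyl group synthesis. Serine is the other main entry, through the serine hydroxymethyltransferases, and mouse embryonic stem cells are known for their dependence on threonine.

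The libraries came from embryonic stem cells (ESC), epiblast stem cells (EpiSC, a primed, post-implantation-like state) and induced pluripotent stem cells (iPSC) of 3 inbred strains, 129S1/SvImJ (129), NOD/ShiLtJ (NOD) and WSB/EiJ (WSB), with 1 library per line or clone and medium. There were 3 ESC libraries, all male and at passage 6, 1 from each strain, grown with LIF and serum plus GSK3B and MEK inhibitors. The 2 EpiSC libraries were male, from NOD (passage 38) and 129 (passage 16), and were grown in EpiSC medium. Per the study's methods the line called 129 EpiSC is of 129/Sv background, not 129S1/SvImJ. The 14 iPSC libraries came from fibroblasts of pooled embryos and carried a constitutive lentiviral cassette of Oct4, Klf4, Sox2 and Myc. Of these, 4 were 129 clones in LIF and serum without inhibitors (2 male, 2 female), 2 were the same male 129 clones after transfer to 2iS (LIF and serum medium with the GSK3B and MEK inhibitors), 4 were WSB clones in 2iS (2 male, 2 female) and 4 were NOD clones in 2iS (2 male, 2 female). The iPSC were harvested at passages 16 to 31 after removal of feeder fibroblasts. Each ESC and EpiSC strain was represented by 1 line, so that strain and line cannot be told apart in those states, and state, medium and origin of the line change together between ESC, EpiSC and iPSC.

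Gene counts per library ranged from 92996 to 567432 and were a small part of the 6082886 to 16307859 uniquely aligned read pairs: 1.15 to 1.74% in 17 libraries and 5.59 to 5.62% in the 2 NOD male iPSC. The library kit keeps the strand of the RNA, and the strand setting of the counting is not given in the sources used here. Genes that share exonic bases with a gene of the other strand were 24.6% of the genes matched to the annotation. In the 17 libraries 64.7% of the gene counts fell on such genes, against 37.8% in the NOD male iPSC. Of the 100 genes with the most counts, 87 were such genes in the 17 libraries and 40 in the NOD male iPSC. It is therefore not known which strand the counted read pairs came from, and all levels below are levels of these counts. Only Tdh (66 bp, with Gm17232), Shmt1 (184 bp, with Smcr8) and Shmt2 (32 bp, with Ndufa4l2) have such an overlap among the 10 genes. The titles of the libraries and their second set of labels agreed in 0 of 19 libraries. The groups follow the titles, and counts of chromosome Y genes were at least 5 in the 13 libraries titled male and 0 in the 6 titled female. The 10 genes together received 42 to 230 counts in each of the 17 libraries and 650 and 730 in the NOD male iPSC, and 3 counts, the smallest number treated as detectable, corresponded to 3.54 to 34.2 CPM, the unit of counts scaled to library size, here the gene counts adjusted by TMM. The values of single genes below therefore rest on few counts outside the NOD male iPSC.

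The promoters of Gldc and Psat1 are shown because only these of the 10 genes passed the test in a comparison of iPSC strains. Gldc passed only in the one over all clones, which was added after values had been seen. Each line gives the 250 bases before a RefSeq start in the GRCm38.p6 assembly, read 5′ to 3′ on the minus strand, which both genes use: chr19:30175442-30175691 for Gldc and chr19:15925060-15925309, before the more upstream of 2 listed starts, for Psat1. The GENCODE annotation, used for the gene positions below, has the start of the transcript Psat1-201 directly beside that stretch, at 15925059, and the start of Psat1-207 further upstream, at 15947337, which the stretch does not cover. Capitals mark CCAAT and GGGCGG on either strand.
Gldc: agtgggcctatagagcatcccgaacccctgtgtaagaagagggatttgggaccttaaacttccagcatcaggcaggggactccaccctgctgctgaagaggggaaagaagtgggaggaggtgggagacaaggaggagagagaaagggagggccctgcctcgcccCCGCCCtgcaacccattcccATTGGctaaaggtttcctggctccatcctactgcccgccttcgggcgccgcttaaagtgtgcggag
Psat1: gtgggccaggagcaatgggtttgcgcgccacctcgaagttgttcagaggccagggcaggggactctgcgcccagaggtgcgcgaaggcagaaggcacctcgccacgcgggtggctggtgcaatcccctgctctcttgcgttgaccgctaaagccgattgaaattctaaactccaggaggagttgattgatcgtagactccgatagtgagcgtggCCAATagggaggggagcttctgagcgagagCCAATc
In the 250 bases before the start, CCAAT occurred on either strand in 33.8% of 32851 RefSeq promoters. It occurred at 1 or more listed starts in 6 of the 9 of these genes that were matched. GGGCGG occurred in 32.7% of all promoters and, counted the same way, in 6 of the 9. Psat1 is among these 6, although the stretch shown for it has no GGGCGG. All promoters are counted per start and the 9 per gene, so the shares are not of the same unit. Tdh was not matched. The E-box CACGTG was present in 0 of the 9 and in 6.02% of all promoters, and AAGGTCA was present in Amt only among the 9 and in 4.08% of all. These are matches of letters and not measured sites.

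Across cell states, 8 of the 10 genes had enough counts for a test in a joint fit of 17 libraries (without the NOD male iPSC), and Gcat and Phgdh did not. Between EpiSC and ESC, 1 of the 8 was lower in EpiSC, Tdh, and 0 were higher, where 15.1% of the 3986 genes tested passed an adjusted p of 0.05 (edgeR quasi-likelihood test, Benjamini-Hochberg). Between EpiSC and iPSC, 2 of the 8 were lower in EpiSC, Tdh and Gldc, and 0 were higher, where 28.3% of all genes passed. Between iPSC and ESC, 0 of the 8 passed the edgeR test, where 6.22% of all genes did, 2 had an unadjusted p under 0.05 (Tdh and Gldc, both higher in iPSC) and 0 passed with DESeq2. The median log2 fold change of the 8 genes was 0.34 for EpiSC against ESC, 0.01 for EpiSC against iPSC and 0.58 for iPSC against ESC, beside medians of -0.06, -0.10 and 0.05 over all genes tested. The 3 comparisons share their libraries. The iPSC libraries include 129 clones 1 and 17 in both media, and the fit treats all libraries as independent.

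**Figure D1:**
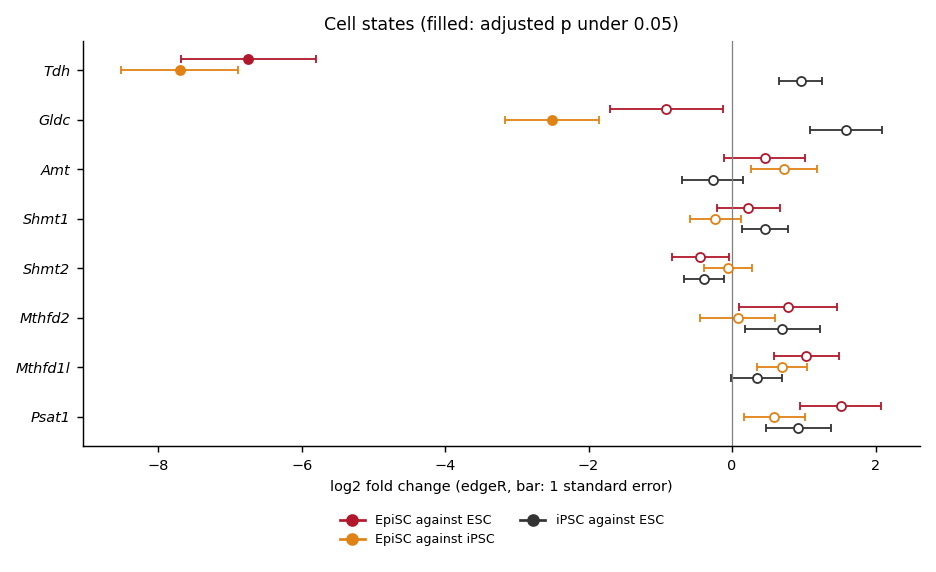
Log2 fold changes (x axis, edgeR) of the 8 genes tested between cell states, with 1 standard error. Filled points passed an adjusted p of 0.05. The filled points are Tdh in both EpiSC comparisons, at -6.74 and -7.70, and Gldc in EpiSC against iPSC, at -2.51.

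Tdh lies on the minus strand of chromosome 14 (63492347 to 63509092, GRCm38). It had 0 counts in the NOD EpiSC and 0 in the 129 EpiSC, where 3 counts over both libraries would have been 9.18 CPM. In the ESC it had 54.0 CPM (NOD), 72.1 CPM (129) and 153 CPM (WSB), from 6, 11 and 17 counts. In the 12 iPSC without the NOD males the lowest value was 115 CPM, the median 175 CPM and the highest 237 CPM. No EpiSC library overlapped any other library, and the NOD and 129 ESC lay below every one of the 12 iPSC. Set against that limit of 3 counts, Tdh was at least 10.1-fold higher in ESC (93.0 ± 52.7 CPM, SD, n = 3) and at least 19.7-fold higher in the 12 iPSC (181 ± 39.5 CPM, SD, n = 12) than in EpiSC. The fitted log2 fold change was -6.74 for EpiSC against ESC (SE 0.95, edgeR adjusted p = 0.000125) and -7.70 for EpiSC against iPSC (SE 0.82, edgeR adjusted p = 8.11e-07). Both calls passed in all alternatives in which Tdh was tested (11 and 8), and the fitted sizes depend on how a count of 0 is treated. In bulk RNA, fewer cells that express a gene and less RNA per cell cannot be told apart. The difference between iPSC and ESC was 0.96 on the log2 scale (SE 0.30, edgeR adjusted p = 0.0655) and it passed in 2 of 9 alternatives, whose adjusted p ranged from 0.0188 (without the WSB ESC) to 0.37 (without the NOD ESC).

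Within the iPSC, the mean of Tdh was 181 ± 33.4 CPM in 129 clones in LIF (SD, n = 4), 196 ± 8.96 CPM in 129 clones in 2iS (n = 2), 175 ± 49.8 CPM in WSB clones (n = 4) and 176 ± 75.3 CPM in NOD female clones (n = 2). The ranges of these 4 groups overlapped one another. The 2 NOD male iPSC had 246 and 263 CPM, above all other libraries.

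Gcat, which encodes the enzyme for the second step of threonine breakdown (chromosome 15, plus strand), was close to the detection limit. It had 0 to 5 counts in the 17 libraries, with 2 counts in all over the 3 ESC, 2 over the 2 EpiSC and 30 over the 12 iPSC, of which 3 had none. The NOD male iPSC had 18 and 29 counts, or 21.2 and 43.9 CPM. A difference in Gcat between states was not detectable at this depth.

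Gldc lies on the minus strand of chromosome 19 (30098447 to 30175429) and had 30.7 CPM in the NOD EpiSC and 30.5 CPM in the 129 EpiSC, from 6 and 4 counts. The ESC had 72.0 CPM (NOD), 45.0 CPM (WSB) and 59.0 CPM (129), from 5 to 9 counts. The 12 iPSC ranged from 50.9 to 319 CPM with a median of 161 CPM. Both EpiSC lay below every ESC and iPSC library. The log2 fold change was -2.51 for EpiSC against iPSC (SE 0.65, edgeR adjusted p = 0.00651), and it passed in 7 of 9 alternatives. Without the NOD EpiSC the adjusted p was 0.0652 and without the 129 EpiSC 0.0677, with sizes of -2.54 and -2.49. It was -0.92 for EpiSC against ESC (SE 0.79, edgeR adjusted p = 0.47) and 1.59 for iPSC against ESC (SE 0.50, edgeR adjusted p = 0.0660), where 3 of 10 alternatives passed.

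Amt, which encodes the aminomethyltransferase of the same complex (chromosome 9, plus strand), was unlike in the 2 EpiSC lines. It had 144.9 CPM in the 129 EpiSC and 25.5 CPM in the NOD EpiSC, and 36.0 to 72.1 CPM in the ESC. The 12 iPSC lay between 22.5 and 79.3 CPM. The 129 EpiSC lay above all of these and the NOD EpiSC within the range of the iPSC. The log2 fold change was 0.46 against ESC (SE 0.56, edgeR adjusted p = 0.63) and 0.73 against iPSC (SE 0.46, edgeR adjusted p = 0.24). The second was 1.56 without the NOD EpiSC (adjusted p = 0.0172) and -0.86 without the 129 EpiSC (adjusted p = 0.40), so its direction rested on the line, and over 9 alternatives the adjusted p ranged from 0.0172 to 0.84.

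Shmt1 and Shmt2, the cytosolic and mitochondrial serine hydroxymethyltransferases that interconvert serine and glycine, were counted in all 19 libraries with no difference between states past the threshold. Shmt2 (chromosome 10, minus strand) had 105 ± 34.2 CPM in ESC (SD, n = 3), 80.2 ± 26.8 CPM in EpiSC (n = 2) and 81.9 ± 21.5 CPM in the 12 iPSC. Shmt1 (chromosome 11, minus strand) had 72.3 ± 41.8, 86.7 ± 14.7 and 106 ± 26.7 CPM in the same groups. Fitted log2 fold changes lay between -0.44 and 0.46 over the 3 comparisons, with SE from 0.28 to 0.44. Of the counts on the pair, Shmt2 took 58.6% in ESC (95% Wilson interval 46.9 to 69.4%), 46.3% in EpiSC (33.7 to 59.4%) and 44.6% in the 12 iPSC (39.3 to 50.1%), and the intervals overlapped. Such intervals cover counting error only.

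Mthfd2 and Mthfd1l encode the mitochondrial enzymes that carry the folate-bound carbon on to formate. Mthfd1l (chromosome 10, plus strand) had 92.0 and 107 CPM in the EpiSC, above the 27.0, 52.4 and 63.0 CPM of the ESC. The log2 fold change for EpiSC against ESC was 1.04 (SE 0.45), with an unadjusted p of 0.0311 and an edgeR adjusted p of 0.12. The 12 iPSC ranged from 30.4 to 103 CPM and overlapped both groups. EpiSC against iPSC was 0.69 (SE 0.34, edgeR adjusted p = 0.14), and it passed in 1 of 9 alternatives, without the genes that share exonic bases with the other strand (0.99, adjusted p = 0.0476), with adjusted p up to 0.74. Mthfd2 (chromosome 6, minus strand) had 56.2 and 53.4 CPM in EpiSC, 8.999 to 45.0 CPM in ESC and 10.8 to 96.8 CPM in the 12 iPSC, and its log2 fold changes of 0.78, 0.08 and 0.70 had edgeR adjusted p from 0.48 to 0.94.

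Psat1, which encodes the aminotransferase of serine synthesis, lies on the minus strand of chromosome 19 (15904678 to 15947337). It had 173.7 CPM in the NOD EpiSC and 144.9 CPM in the 129 EpiSC, against 54.0 CPM (NOD), 45.0 CPM (WSB) and 65.5 CPM (129) in ESC. Both EpiSC lay above all ESC, with a log2 fold change of 1.52 (SE 0.57), an unadjusted p of 0.0140 and an edgeR adjusted p of 0.0751. The 12 iPSC ranged from 30.5 to 207 CPM, median 104 CPM, and overlapped both, and EpiSC against iPSC was 0.59 (SE 0.42, edgeR adjusted p = 0.31). Phgdh, the first enzyme of the same pathway (chromosome 3, minus strand), had 0 to 5 counts in the 17 libraries and 8 and 18 counts in the NOD male iPSC, too few for a comparison. Its highest value, 38.1 CPM, came from the 5 counts of the 129 EpiSC, while the NOD EpiSC had 0.

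The state labels were checked against marker genes. Of 9 markers of the naive state, 8 were tested and all 8 were lower in EpiSC than in ESC and than in iPSC, with Zfp42, Dppa5a and Esrrb at 0 in both EpiSC. The summed level of these 9 genes was 15.3 CPM in each EpiSC, 1143 to 1697 CPM in ESC and 1459 to 2470 CPM in the 12 iPSC. Fgf5, a marker of the primed state, had 17 counts in the 129 EpiSC and 0 in the NOD EpiSC and in every other library. Of the 9 primed markers, 3 were tested, of which 1 was higher (Krt18) and 1 lower (Lefty2) in EpiSC than in ESC. Against iPSC, 2 were higher in EpiSC (Krt18 and Dnmt3b) and 1 lower (Lefty2). Krt18 had 100 ± 128 CPM in EpiSC (SD, n = 2), so the 2 lines lay far apart in it. The summed level of the 9 primed markers was 281 and 732 CPM in EpiSC. It was 242 to 567 CPM in ESC and 112 to 379 CPM in the 12 iPSC, so the ranges overlapped. The primed markers thus set the EpiSC apart less clearly than the naive markers did. Of 15 fibroblast markers, 5 were tested and 4 were lower in iPSC than in ESC, and the summed level was 1854 to 2778 CPM in ESC, 118 and 1030 CPM in EpiSC and 273 to 951 CPM in the 12 iPSC, where Ccdc80, Col12a1 and Tnc were at 0. Without Fn1, which made up most of the sum in the iPSC, it was 765 to 1500 CPM in ESC, 56.2 and 412 CPM in EpiSC and 0 to 83.2 CPM in the 12 iPSC. The part of these markers in the levels of Tdh and Gldc in ESC was not tested.

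Over 6 lists of other genes of the pathways (58 genes, 25 tested), 4 were higher and 0 lower in EpiSC than in ESC (16%, beside 15.1% of all genes), 4 were higher and 2 lower in EpiSC than in iPSC (24%, beside 28.3%), and 1 was higher in iPSC than in ESC (4%, beside 6.22%). These shares lie near those of all genes. The 1 gene higher in iPSC than in ESC was Gcsh, named after its values were seen, which encodes the H protein of the glycine cleavage system, at 1.82 (SE 0.52, edgeR adjusted p = 0.0369), from 7 counts over the 3 ESC. Psph, which completes serine synthesis, was the 1 of 2 tested partners of serine synthesis and glycine cleavage that rose in EpiSC, by 2.01 on the log2 scale against ESC (SE 0.60, edgeR adjusted p = 0.0265) and 1.41 against iPSC (SE 0.43, edgeR adjusted p = 0.0179). Of 8 amino acid transporters, 5 were tested and 1 rose in each EpiSC comparison, Slc38a1, by 1.67 (SE 0.42) against ESC and 1.503 (SE 0.31) against iPSC. Of 11 genes of the amino acid response, 5 were tested: Atf4 and Ddit3 rose in EpiSC against ESC, by 1.43 (SE 0.44) and 1.79 (SE 0.33), and Ddit3 alone against iPSC, by 1.29 (SE 0.25). Atf4 encodes a factor that induces serine synthesis genes when amino acids are short. Of 15 folate genes, 4 were tested, with 0 past the threshold against ESC and 2 against iPSC, Aldh1l2 at 1.37 (SE 0.37) and the folate transporter gene Slc46a1 at -1.85 (SE 0.61). The 2 EpiSC lines lay far apart in both. Aldh1l2 had 373 ± 290 CPM in EpiSC (SD, n = 2) and 150 ± 53.3 CPM in the 12 iPSC. Slc46a1 had 15.3 ± 21.7 CPM and 67.4 ± 26.6 CPM in the same groups. Of 13 methionine cycle genes 3 were tested and Mtr fell against iPSC by 2.78 on the log2 scale (SE 0.92). Mtr had 5.11 ± 7.23 CPM in EpiSC (SD, n = 2), near the detection limit, and 47.1 ± 25.9 CPM in the 12 iPSC. Of 8 purine synthesis genes 6 were tested and 0 passed in either EpiSC comparison. List medians lay at 1.34, 1.13, 0.57, -0.15, 0.08 and -0.17 for EpiSC against ESC in the order given, beside -0.06 over all genes.

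The medium was compared in the 2 male 129 clones, each sequenced in LIF and in 2iS. The LIF libraries of clones 1 and 17 were at passages 21 and 20, and their 2iS libraries at passages 31 and 30. Medium and passage therefore cannot be told apart in this comparison. Of the 7 genes tested, 0 passed the edgeR test, where 4.10% of 3388 genes did. Also 0 had an unadjusted p under 0.05 and 0 passed with DESeq2. Gldc was 319 and 308 CPM in LIF and 255 and 167 CPM in 2iS, for clones 1 and 17, lower in 2iS in both, with a log2 fold change of -0.61 (SE 0.33, edgeR adjusted p = 0.42). Tdh was 166 and 160 CPM in LIF and 203 and 190 CPM in 2iS, higher in 2iS in both, with 0.24 (SE 0.36, edgeR adjusted p = 0.86). The SE was largest for Mthfd2, at 0.68, whose log2 fold change was -0.73, and for Mthfd1l, at 0.56, whose log2 fold change was -0.58. The median over the 7 genes was -0.15, and 0.01 over all genes.

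Among iPSC of different strains grown in 2iS, Psat1 passed the test between WSB and 129 males. Gldc passed in neither comparison matched for sex and medium at harvest. The 129 males had been derived in LIF without inhibitors and were at passages 31 and 30. The WSB males had been derived in 2iS and were both at passage 16. Strain, medium of derivation and passage therefore cannot be told apart between these males. In 2iS, male WSB clones had 129 and 50.9 CPM of Gldc and male 129 clones 255 and 167 CPM, and female WSB clones had 83.2 and 53.0 CPM and female NOD clones 155 and 129 CPM. In each pair of groups the WSB clones were lower and did not overlap the others. The log2 fold changes were -1.05 (SE 0.39, edgeR adjusted p = 0.12) for WSB against 129 males and -1.08 (SE 0.45, edgeR adjusted p = 0.22) for WSB against NOD females. Of the 7 genes tested, 1 was lower in WSB than in 129 males, Psat1, and 0 were higher, where 5.05% of all genes passed. Between WSB and NOD females 0 of 7 passed with edgeR, where 3.98% of all genes did, 1, Gldc, had an unadjusted p under 0.05, and 0 of the 4 that DESeq2 gave an adjusted p passed. The medians over the 7 genes were -0.20 and 0.06, beside -0.010 and -0.0039 over all genes.

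After these values had been seen, all 4 WSB clones were compared with all 6 libraries of 129 iPSC, and the 2 NOD female clones with the same 6. These 6 libraries come from 4 clones, since clones 1 and 17 were each sequenced in both media, and the fit treats them as independent. The 129 libraries had 167 to 319 CPM of Gldc and the WSB clones 50.9 to 129 CPM, with no overlap. Of 7 genes, 2 were lower in WSB, Gldc and Psat1, and 0 were higher, where 14.7% of 3388 genes passed. The log2 fold change of Gldc was -1.62 (SE 0.26, edgeR adjusted p = 3.47e-05). With 1 library per 129 clone it was -1.78 with the male clones in LIF (adjusted p = 1.68e-05) and -1.47 with them in 2iS (adjusted p = 0.00102). It was past the threshold in all 17 alternatives run, at -1.43 to -2.11, but the contrast was chosen for this gene and its p is no independent test. The WSB clones were all in 2iS and 4 of the 6 129 libraries in LIF, so strain and medium cannot be told apart in this contrast, and the within-2iS value in males, -1.05, did not pass. For NOD females against 129, 0 of 7 genes passed with edgeR, where 6.94% of all genes did, 1 had an unadjusted p under 0.05 and 0 passed with DESeq2. Gldc in that contrast was -0.81 (SE 0.28, edgeR adjusted p = 0.0782), and it passed in 1 of 15 alternatives, with 1 library per 129 clone and the males in LIF (adjusted p = 0.0319), with adjusted p up to 0.82. The medians over the 7 genes were -0.07 in both contrasts, beside -0.0027 and 0.0019 over all genes. The NOD females, at 129.4 and 155 CPM, lay below all the 129 clones and just above the highest WSB clone, at 129.2 CPM.

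**Figure D2:**
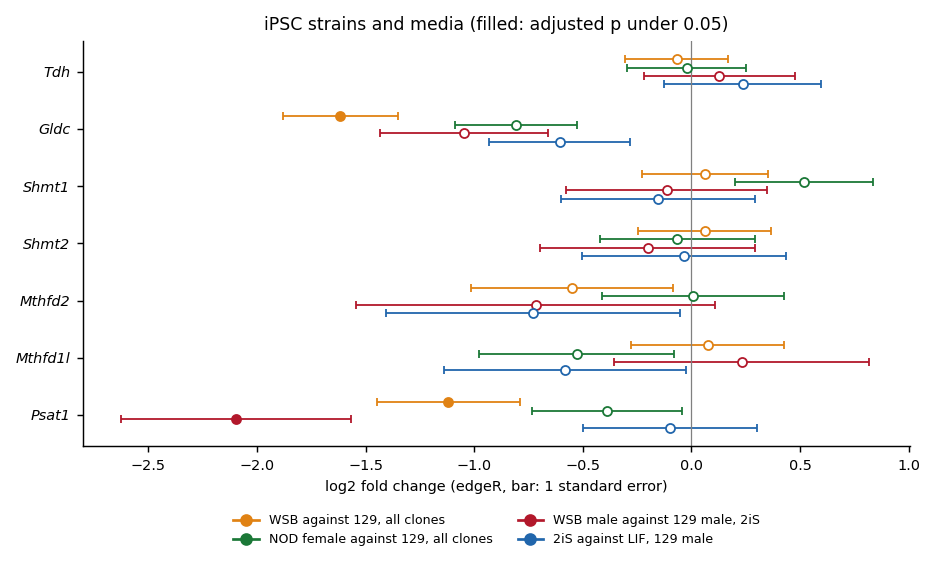
Log2 fold changes (x axis, edgeR) of the 7 genes tested in iPSC for 3 comparisons of strains and 1 of media, with 1 standard error. Filled points passed an adjusted p of 0.05. Filled points are Gldc (-1.62) and Psat1 (-1.12) in WSB against all 129 clones and Psat1 (-2.10) in the males in 2iS, and none of the 7 passed for NOD females against 129 or for 2iS against LIF.

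Psat1 in 2iS was 37.7 and 30.5 CPM in the male WSB clones and 176 and 137 CPM in the male 129 clones. The groups did not overlap, and the log2 fold change was -2.10 (SE 0.53, edgeR adjusted p = 0.0124). It passed in 5 of 9 alternatives. With DESeq2 the adjusted p was 0.14, and it was 0.14 without WSB clone 12, 0.0659 without WSB clone 25 and 0.12 without 129 clone 1. The female WSB clones had 83.2 and 124 CPM, overlapping the 74.8 and 129 CPM of the NOD females, with a log2 fold change of 0.06 (SE 0.46, edgeR adjusted p = 0.98). The difference between the sexes of WSB was not tested. Over all clones the log2 fold change of WSB against 129 was -1.12 (SE 0.33, edgeR adjusted p = 0.0176), and this call was kept in 11 of 17 alternatives. It was lost with DESeq2 (0.25), with 1 library per 129 clone and the males in 2iS (0.0686) and on leaving out WSB clone 12 (0.0664), WSB clone 25 (0.0510), 129 clone 1 in LIF (0.14) or 129 clone 8 (0.0659).

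A transporter gene in the fixed lists, Slc7a11, was singled out after its values were seen. It encodes the light chain of the cystine and glutamate exchanger. It had 1013 to 1688 CPM in the 6 libraries of 129 iPSC, 58.8 and 61.6 CPM in the NOD female iPSC, 0 and 7.56 CPM in the NOD male iPSC and 0 to 10.4 CPM in the WSB iPSC. The 129 ESC had 544 CPM, the NOD ESC 63.0 CPM and the WSB ESC 9.001 CPM. The 129 EpiSC had 5286 CPM and the NOD EpiSC 10.2 CPM. The 129 library or libraries were thus the highest in each state, and each state other than iPSC had 1 library per strain. The 4 WSB clones had 2 counts of it in all. Since the gene was chosen for this pattern, no test is given.

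The NOD male iPSC were compared with the NOD females in a fit of their own, since they had another share of read pairs on genes. Whether they were counted with the same strand setting as the other libraries is not given in the sources used here, so the values of the males may not be of the same kind. Among markers, 5 of 8 naive and 4 of 6 shared pluripotency genes tested were also higher in the males. Of 8 genes tested, 1 was higher in the males, Shmt2, and 0 were lower, where 38.9% of 4457 genes passed. Shmt2 had 120 and 147 CPM in the males and 64.1 and 92.4 CPM in the females, with no overlap. The log2 fold change was 0.85 (SE 0.34, edgeR adjusted p = 0.0487). It passed in 1 of 8 alternatives, whose adjusted p ranged from 1.03e-10 (aligned read pairs as library size) to 0.61 (DESeq2). Tdh was 0.59 higher (SE 0.29, edgeR adjusted p = 0.10), and the median was 0.11 over the 8 genes and 0.18 over all genes. With aligned read pairs in place of gene counts as library size, all 8 genes were higher in the males, for Tdh 21.6 ± 1.35 against 2.65 ± 1.35 CPM of aligned read pairs (SD, n = 2 each), while the median over all genes was then 2.61.

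A share within the 10 genes needs no library size. Gldc took 26.3 to 30.9% of their counts in the 4 129 clones in LIF, 20.4 and 24.0% in the 129 clones in 2iS, 15.9 and 19.08% in the NOD females and 7.41 to 19.4% in the WSB clones. It took 4.396 and 5.61% in the EpiSC and 7.94 to 19.05% in the ESC. Tdh took 11.3 to 27.0% in ESC, 15.2 to 35.5% in the 12 iPSC and 0 of 198 counts in the EpiSC, where 3 counts would be 1.52% and the 95% Wilson upper limit is 1.90%. Psat1 took 20.9 and 31.8% in the EpiSC, 7.94 to 14.3% in the ESC and 5.26 to 20% in the 12 iPSC. Summed over libraries, Mthfd1l took 16.2% in EpiSC and 8.91% in ESC, and Mthfd2 9.09% and 5.94%. A share that falls raises the others by construction.

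**Figure D3:**
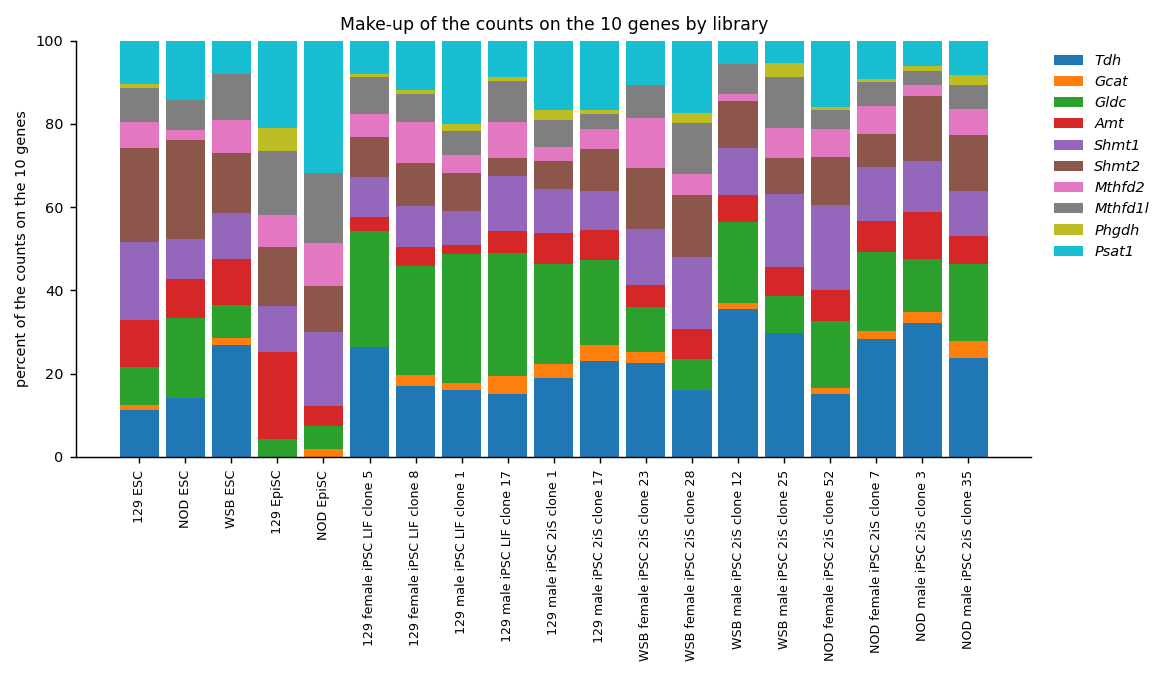
Percent of the counts on the 10 genes (y axis, 0 to 100) that each gene took in each of the 19 libraries (x axis). Tdh is absent in the 2 EpiSC bars, Psat1 takes 20.9 and 31.8% there, and Gldc takes 20.4 to 30.9% in the 6 129 iPSC bars.

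Per kilobase of exon, the order of the levels also differed by state. In the 12 iPSC Tdh was the highest of the 10 genes at 69.2 ± 15.1 CPM per kb (SD, n = 12), followed by Gldc (29.5 ± 15.7), Shmt1 (27.3 ± 6.87), Shmt2 (26.4 ± 6.91) and Psat1 (25.0 ± 12.4), whose ranges of 1 SD overlapped one another. In ESC Tdh (35.6 ± 20.2, n = 3) and Shmt2 (33.8 ± 11.0) were level. In EpiSC Psat1 led at 37.5 ± 4.79 (n = 2), beside Amt at 35.0 ± 34.6, which differed between the lines, and Tdh was last at 0.

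The pattern of Tdh was compared with that of all other tested genes over the 17 libraries, by Pearson correlation of log2 CPM with a prior count of 2. The closest were Esrrb (r = 0.94), Rps4y2 (0.94), Gab1 (0.92), Dppa5a (0.92) and Mybl2 (0.92), of which Esrrb and Dppa5a were in the list of naive markers and were at 0 in both EpiSC. Gldc was the closest of the other enzymes, at rank 249 of 3985 genes (r = 0.66), and Shmt1, Mthfd2, Shmt2, Amt, Psat1 and Mthfd1l had r from -0.36 to 0.15. The points share libraries and states, and most of the spread of Tdh lies between the EpiSC and the rest.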

How the data were processed

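RNA-seq was performed on 19 libraries of mouse ESC, EpiSC and iPSC, with 1 file of whole-number counts per gene for each. The deposited counts were made by the authors: reads were trimmed with Trimmomatic, aligned to GRCm38/mm10 with TopHat2 2.1.1 and counted per gene with HTSeq in its intersection-nonempty mode. The strand setting, the annotation and the other versions are not given in the sources used here. Read pairs aligned to more than 1 place or to no gene stand in 5 summary lines per file and were left out of library sizes.

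Groups were taken from the library titles, and 0 columns of per-library values were left unused. Tests were run with edgeR 4.0.16 in R 4.3.3 (TMM scaling, filterByExpr, glmQLFit and glmQLFTest) on the counts as deposited, with Benjamini-Hochberg adjustment over all genes tested and a threshold of 0.05. The standard error is the absolute log2 fold change divided by the square root of the F statistic. State was fitted over 17 libraries, strain, sex and medium over 12 iPSC, and the NOD males over 14 iPSC. The libraries are single cultures, and p-values measure the spread between them. CPM were scaled by TMM over the 19 libraries. The 2 male 129 clones were sequenced in both media, so the clone pairs those 4 libraries, by their titles, and was fitted as a block in an alternative. DESeq2 1.42.0, other scalings and filters, and leaving out each library were alternatives. Positions, lengths and exon overlaps came from the GENCODE annotation of GRCm38, in which 98.6% of the genes were matched by symbol, and promoters from RefSeq. The edgeR and DESeq2 tests in their main setting were tried on simulated data. The fits with a block or covariate, the other scalings and filters and the search for outlying libraries were not.

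The 10 genes were given by name, and they and the other gene lists were chosen with earlier results of these data known. Named beside them were up to 3 genes per list with the largest changes past the threshold in the EpiSC comparisons, the 5 genes most like Tdh and the genes opposite a member. Slc7a11, Gcsh, 2 contrasts over all clones and their fits with 1 library per 129 clone were added after values had been seen.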

Additional observations from a re-analysis of the deposited data

Results flagged for a closer look

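Of 30 pairs of a gene and a group of 4 libraries or more that were examined for a library far from the others of its group, 1 stood apart. In the 4 129 iPSC clones grown in LIF, Tdh was 231 CPM in female clone 5 and 160 to 168 CPM in the other 3 clones, and the gap to the nearest clone was 0.88 of the whole range. Chance alone marks about 1 in 20 such groups. Clone 5 had 33 counts of Tdh.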

How the results depend on the processing

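The called fold changes of single enzymes were recomputed under each alternative. Of the recomputed values, 60 stayed on their side of the threshold, 19 no longer passed and 0 changed direction. Among the 60, 17 of Gldc and 11 of Psat1 came from WSB against all 129 clones, a contrast added after values had been seen. Another 11 and 8 were those of Tdh in EpiSC against ESC and against iPSC. With at least 10 counts required in every library, fewer genes were tested, and those past the threshold were 216 for EpiSC against ESC, 364 for EpiSC against iPSC, 45 for iPSC against ESC, 38 for 2iS against LIF, 91 for WSB against 129 males, 52 for WSB against NOD females, 182 for WSB against all 129, 73 for NOD females against 129 and 935 for NOD males against females. Without the genes that share exonic bases with the other strand they were 170, 388, 112, 63, 66, 63, 185, 121 and 316 in the same order, and Tdh was not tested, so that 0 of the enzymes passed for EpiSC against ESC. With DESeq2 they were 47 for 2iS against LIF, 65, 44, 229 and 87 for the next 4 comparisons in that order, and 992 for the NOD males. With no filter on low counts 1874 passed for EpiSC against iPSC and 600 for iPSC against ESC, and with aligned read pairs as library size 3527 passed for the NOD males. With 1 library per 129 clone and the males in 2iS, 330 genes and 1 enzyme passed for WSB against all 129, and with the males in LIF 1 enzyme passed for NOD females against 129, both chosen after seeing the data. The cause of these differences was not tested. The scaling by aligned read pairs also shifted the median log2 fold change of all genes, to -0.29 for EpiSC against ESC, -0.62 for EpiSC against iPSC, 0.34 for iPSC against ESC, 0.14 for WSB against all 129, 0.20 for WSB against NOD females and 2.61 for the NOD males. Genes past the threshold were then 200 higher and 338 lower in EpiSC than in ESC (328 and 273 by TMM), 325 higher and 1081 lower in EpiSC than in iPSC (681 and 448), 197 higher and 129 lower in iPSC than in ESC (40 and 208), 356 higher and 152 lower in WSB than in all 129 (254 and 243), 112 higher and 39 lower in WSB than in NOD females (73 and 62) and 3460 higher and 67 lower in NOD males (640 and 1095).

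Leaving out 1 library moved the number of genes by over 1.5 times for 2iS against LIF (62 to 64, without clone 1 in either medium or clone 17 in 2iS), EpiSC against ESC (262 without the 129 EpiSC and 370 without the 129 ESC), EpiSC against iPSC (585 without the 129 EpiSC), iPSC against ESC (88 without the NOD ESC, 133 without the 129 ESC and 156 without the WSB ESC), WSB against 129 males (60 without WSB clone 12, 79 without 129 clone 1 and 98 without 129 clone 17), WSB against NOD females (75 without NOD clone 52, 86 without NOD clone 7 and 87 without WSB clone 28), WSB against all 129 (331 without WSB clone 12) and NOD females against 129 (141 without NOD clone 52). The enzymes past the threshold were then 1 to 2 for EpiSC against iPSC and for WSB against all 129, and 0 to 1 for iPSC against ESC, for WSB against 129 males and for the NOD males. A group left with 1 library was taken to vary like the other groups. For iPSC against ESC 2 enzymes passed with aligned read pairs, 1 with no filter and 1 with strain as a covariate. For the NOD males 8 passed with aligned read pairs, 2 of 2 tested with at least 10 counts in every library, and 0 with DESeq2, with its size factors, with no filter or without the genes that share exonic bases. With at least 10 counts in every library 0 of 2 enzymes tested passed in both comparisons of WSB with 129, and with DESeq2 1 passed against all 129 and 0 in males. With the clone as a replicate block 0 of 5 enzymes tested and 102 of 2160 genes passed between media, and no call on the enzymes changed. Depth limited Gcat and Phgdh, with 0 to 5 counts in 17 libraries.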
